A study of Mus musculus with 12 samples.

Results

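Gene expression after chronic restraint stress was compared with that in unstressed mice, using 6 of the 12 RNA sequencing libraries of the series. The 3 vehicle libraries came from mice restrained for 18 days and then given vehicle, with tissue taken 24 hours later. The 3 unstressed libraries came from mice labelled as unstressed controls, whose own labels name no treatment. All mice were male C57BL/6J, and neither ages, the composition of the vehicle nor the time of day of collection is stated in the labels. The samples are labelled as monocytes from the meninges, the membranes around the brain, obtained with a magnetic monocyte isolation kit, with RNA extracted by the PicoPure kit and libraries made from 5 ng of RNA. Genes were used when they had at least 1 count in all 6 libraries and a mean of at least 10 CPM (counts scaled to library size) in each group, which left 6590 of 27591 genes that could be matched between the groups' annotations. Nothing in the labels ties the replicates to separate animals; the p-values therefore measure only how these samples spread, and some of that spread may be technical.

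Restraint activates the hypothalamic-pituitary-adrenal axis, which releases glucocorticoids, and the sympathetic nerves. Glucocorticoids act through the receptor encoded by Nr3c1, which induces genes such as Fkbp5 and Tsc22d3 and, in many settings, lowers its own transcript. Stress hormones also move monocytes between bone marrow, blood and tissues. Classical monocytes carry Ly6c2 and Ccr2, the receptor that brings them out of the marrow, and the meninges also hold resident macrophages, fibroblasts, blood vessels and, at the ventricles, the adjoining choroid plexus.

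The libraries differed in how they were counted and in how alike they were. The unstressed libraries held 2949163, 4008849 and 4504400 gene counts and the vehicle libraries 3623830, 807725 and 1954222. Unstressed counts were made on a RefSeq annotation and vehicle counts carry Ensembl identifiers, so group and annotation cannot be told apart. For 1112 of the kept genes the annotations gave nearly the same exons (at least 0.9 of all exon bases shared, as a Jaccard index). Across the kept genes, Pearson correlations of log2 CPM ran from 0.806 to 0.886 between unstressed libraries, but were 0.49, 0.226 and 0.323 between vehicle libraries 1 and 2, 1 and 3, and 2 and 3. The standard deviation of log2(CPM + 1) was larger among vehicle than among unstressed libraries for 5948 genes (90.3%), with medians of 1.46 and 0.408. The rule itself passed over many genes in the vehicle group: of 8551 genes with both means at 10 CPM or more, 859, 99 and 1217 were missing from vehicle libraries 1, 2 and 3. The genes nearest the limit were Rps26 (lower group mean 10.02 CPM), Mob3a (10.02) and Homez (10.03) inside it, and Trmt112 (9.999), Khsrp (9.996) and Slc18b1 (9.996) outside it.

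No gene passed the test in either direction (edgeR quasi-likelihood test, Benjamini-Hochberg adjusted p at or under 0.05, 0% of 6590 genes higher and 0% lower). The smallest adjusted p in edgeR was 0.483, and 267 genes (4.05%) had an unadjusted p under 0.05, of which 181 were higher and 86 lower in vehicle. DESeq2 on the same genes called 6 higher (0.091%) and 2 lower (0.0303%), and limma voom with quality weights called 0. Fold changes are log2 of vehicle over unstressed throughout. The median over all kept genes was 0.27 (quartiles -0.407 and 0.871), and 4028 genes (61.1%) were above 0. All 3 vehicle libraries lay above all 3 unstressed libraries for 497 genes (7.54%) and below them for 467 (7.09%). Without a call to rest on, the sections that follow give each library's level and say whether the groups overlapped. Counts of list members wholly above or below are to be read beside these shares of 7.54% and 7.09%.

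**Figure D1:**
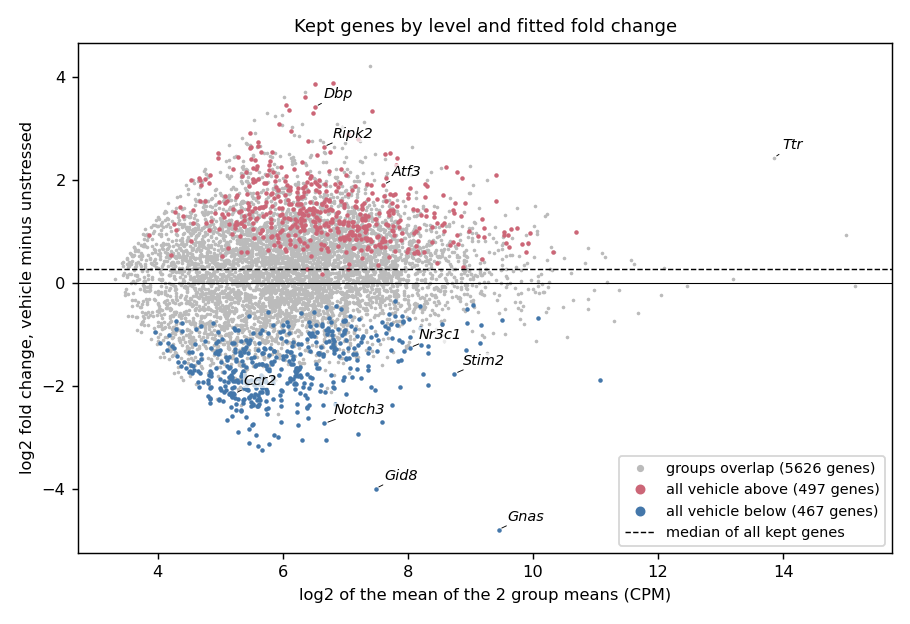
Fitted log2 fold change (vertical, vehicle minus unstressed) against the log2 of the mean of the group means in CPM (horizontal) for the 6590 kept genes. Red points are the 497 genes with every vehicle library above every unstressed library, blue points the 467 with every vehicle library below, and the dashed line marks the median of 0.27.

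Atf3, a transcription factor of the stress and immediate early response, had the smallest p among genes with nearly the same exons whose vehicle libraries all lay above. It stood at 59.9, 87.2 and 99.8 CPM in unstressed libraries 1, 2 and 3 and at 307, 239 and 374 CPM in vehicle libraries 1, 2 and 3. Every vehicle value was above every unstressed value, with a log2 fold change of 1.90 ± 0.54 (SE, n = 3 per group, edgeR adjusted p = 0.919). Atf3 lies on chromosome 1 (chr1:191170296-191218039, minus strand, GRCm38, GENCODE vM21). Its RefSeq promoter (GRCm38.p6, chr1:191183284-191183583, minus strand, 250 bases before to 50 after a start inside the gene) is shown because stress kinases are known to act on this gene through an element bound by ATF and CREB proteins. The capitals mark TTACGTCA, searched on both strands, whose first base lies 10 bases before the start.
Atf3: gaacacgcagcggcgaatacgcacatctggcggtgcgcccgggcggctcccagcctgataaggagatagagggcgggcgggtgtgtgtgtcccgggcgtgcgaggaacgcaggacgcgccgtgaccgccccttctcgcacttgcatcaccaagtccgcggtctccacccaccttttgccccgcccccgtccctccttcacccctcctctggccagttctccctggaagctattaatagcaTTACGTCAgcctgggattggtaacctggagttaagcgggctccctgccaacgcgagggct
The same letters were found in 0.581% of 27025 genes with a promoter entry and in 1.03% of the 5223 kept genes with one. Such a match describes the sequence and does not show that a factor was bound there.

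Among the other genes with nearly the same exons and no overlap, the 9 next higher ones by p included signalling and metabolic genes. Ripk2, the kinase that relays signals from the NOD receptors of bacterial cell wall fragments, stood at 27.9, 24.4 and 31.3 CPM in unstressed libraries and at 216, 61.8 and 242 CPM in vehicle libraries (log2 fold change 2.64 ± 0.75 SE). Its unstressed values lay close together, and vehicle library 2 was the lowest of the vehicle libraries. Gpm6a, a membrane glycoprotein of neurons and some epithelia, was at 359, 112 and 301 CPM against 1054, 749 and 1496 CPM (2.10 ± 0.60). Sord, which makes fructose from sorbitol, was at 8.42, 20.8 and 20.2 CPM against 76.8, 23.6 and 389 CPM, so that vehicle library 2 sat just above the unstressed range. The log2 fold change of Sord was 3.30 ± 1.097, and 1.52 without vehicle library 3. Gpx8, a peroxidase of the endoplasmic reticulum, was at 47.6, 87.2 and 48.3 CPM against 393, 109 and 169.5 CPM (1.88 ± 0.69, and 1.13 without vehicle library 1). Rgcc was at 89.7, 155 and 114 CPM against 709.6, 289.9 and 178 CPM (1.72 ± 0.64, and 0.916 without vehicle library 1). Both were highest in vehicle library 1. Thoc3, of mRNA export, was at 20.4, 25.3 and 13.6 CPM against 78, 31.5 and 159.5 CPM (2.18 ± 0.87, and 1.39 without vehicle library 3). Ids, the lysosomal iduronate sulfatase, was at 22, 34.1 and 46.6 CPM against 126, 47.2 and 227 CPM (1.96 ± 0.81, and 1.25 without vehicle library 3). Both were highest in vehicle library 3, and Ids in vehicle library 2 was barely above the unstressed range. The remaining genes of this group were Rgs16 (2.42 ± 0.93), a brake on G protein signalling, and Ngrn (1.86 ± 0.74). Each had an edgeR adjusted p of 0.919.

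In the opposite direction, Stim2, a calcium sensor of the endoplasmic reticulum, was at 711, 506 and 770 CPM in unstressed and at 163, 194 and 225 CPM in vehicle libraries. Its groups were far apart and each was narrow (log2 fold change -1.77 ± 0.48 SE, edgeR adjusted p = 0.919, chr5:53998499-54121057, plus strand). Notch3, the Notch receptor of vascular smooth muscle and pericytes, was at 259, 116 and 155 CPM against 10.4, 23.6 and 45.8 CPM (-2.74 ± 0.79). Irs1, an adaptor of the insulin receptor, was at 316, 521 and 297 CPM against 26.2, 82 and 172 CPM (-2.02 ± 0.73). For Irs1 and for Sacm1l (-2.03 ± 0.56), a phosphoinositide phosphatase, the exon bases shared with no other gene differed between the annotations, 6322 against 9163 and 1938 against 3435 in Ensembl and RefSeq. Also wholly below were Alg11 (-2.15 ± 0.66) of protein glycosylation, the mitotic kinase Nek9 (-2.29 ± 0.82), the RNA demethylase Alkbh5 (-2.10 ± 0.75, and -1.35 without unstressed library 2), the semaphorin receptor Plxnd1 (-2.18 ± 0.79) and Trabd2b (-2.22 ± 0.80), a protease that acts on Wnt proteins.

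**Figure D2:**
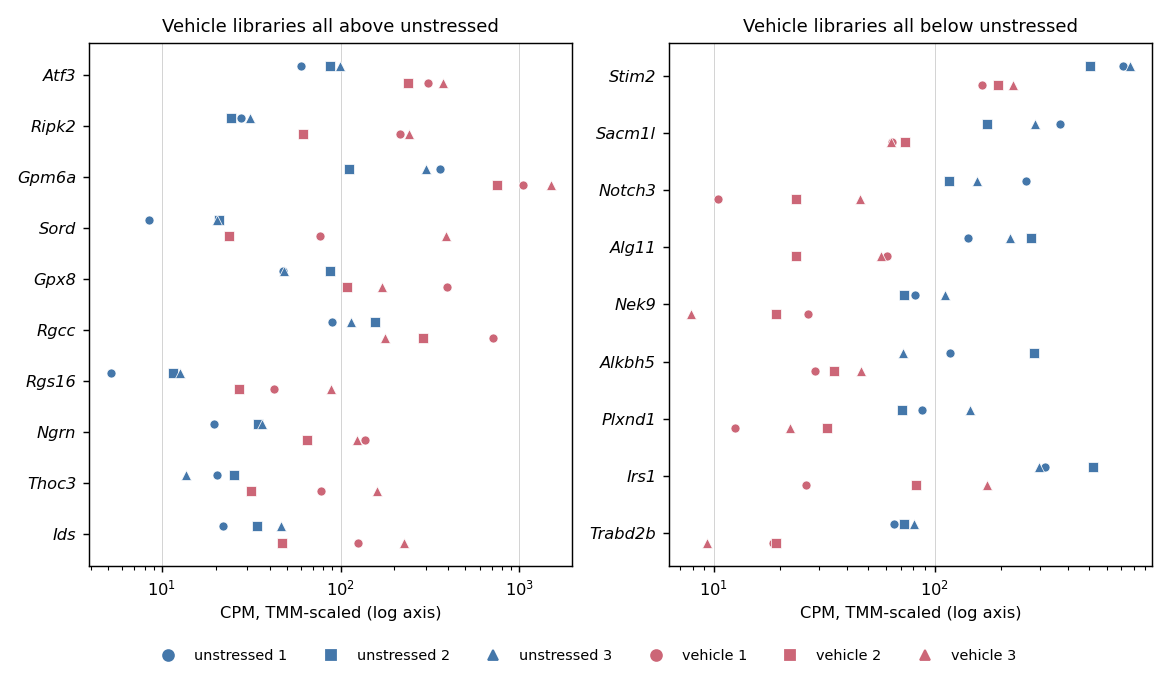
CPM (log axis) in each of the 6 libraries for the named genes of smallest p in each direction among those with nearly the same exons and no overlap between the groups. Unstressed libraries are blue and vehicle libraries red, and marker shape gives the replicate; in every row the red points lie to one side of the blue ones.

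The 6 libraries from stressed mice given psilocybin or MDMA share the Ensembl annotation with the vehicle libraries, and their levels are given beside these genes on a scale common to all 12 libraries. They use the same unstressed libraries as reference, and differences from vehicle were not tested here. Stim2 ran from 542 to 821 CPM in unstressed, 171 to 212 in vehicle, 105 to 230.3 in psilocybin and 114 to 197 in MDMA libraries, so all 9 stressed libraries lay below the unstressed ones. Notch3 gave 124 to 270.4, 10.9 to 43.1, 35.9 to 59.6 and 45 to 50.002 CPM in the same order of groups, and Plxnd1 gave 75.9 to 155, 13.1 to 34.2, 32 to 38.1 and 37.4 to 45.7. Atf3 ran from 62.6 to 106 in unstressed, 251 to 352 in vehicle, 146 to 229 in psilocybin and 166 to 217 in MDMA libraries. Here too every stressed library lay above the unstressed ones, with the drug libraries between the unstressed and vehicle values. Ripk2 showed another pattern, at 26.1 to 33.4, 64.9 to 228, 21.5 to 26.3 and 19.9 to 40.3 CPM in unstressed, vehicle, psilocybin and MDMA libraries. For Ripk2 the drug libraries lay around the unstressed range, under all vehicle libraries. Rgs16 gave 5.42 to 13.4, 28.3 to 82.8, 10.9 to 19.1 and 4.35 to 19.1 CPM, and Ngrn 20.3 to 38.8, 68.4 to 144, 39.3 to 48.3 and 29.1 to 35.1 CPM.

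The glucocorticoid receptor gene Nr3c1 was at 377, 318 and 412 CPM in unstressed and at 180, 162 and 118 CPM in vehicle libraries. The groups did not overlap, and its exons are nearly the same in both annotations (log2 fold change -1.27 ± 0.49 SE, edgeR adjusted p = 0.919). Of 18 genes on the list of glucocorticoid targets, 12 were kept, none passed the test, 0 lay wholly above and 1, Nr3c1 itself, wholly below. The list's median was 0.50 beside 0.27 over all genes, of which 7.54% lay wholly above and 7.09% wholly below. The 3 members with nearly the same exons, Nr3c1 among them, had a median of -1.15, and 1 of the 3 was above 0. Relative to all genes, the list's median ran from -1.36 to 0.63 over the alternative analyses, so its side was not settled. Tsc22d3, which encodes the anti-inflammatory protein GILZ, was at 698, 893 and 862 CPM against 597, 865 and 1441 CPM, an overlap. Fkbp5, the co-chaperone that tempers the receptor, was at 40.8, 31.8 and 34 CPM against 24.7, 118 and 41.5 CPM, high in vehicle library 2 alone. Sgk1, a kinase that controls ion transport, gave 240.4, 232 and 433 CPM against 1440.0, 759.5 and 276 CPM. Sgk1 and the phosphatase gene Dusp1 (469, 418 and 402 against 2108, 897 and 190.3 CPM) were both high in vehicle libraries 1 and 2, and within or under the unstressed range in library 3. Per1, a clock gene that the receptor also induces, was at 45.4, 53.5 and 35.7 CPM against 48.8, 43.8 and 80.8 CPM.

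Clock genes, which keep daily time through activators such as Arntl and repressors such as Per2, included 5 of 14 kept members without overlap. Of these, 4 lay above and 1 below, beside 7.54% and 7.09% of all kept genes. The list's median was 0.70, with 10 members above 0. Dbp, an output gene of the clock, was at 23.6, 15.1 and 8.3 CPM in unstressed and at 106, 52.8 and 343 CPM in vehicle libraries, the largest log2 fold change on the list (3.41 ± 0.94 SE, edgeR adjusted p = 0.919, and 2.27 without vehicle library 3). Per2 gave 25.6, 12 and 18.9 CPM against 55.1, 25.8 and 193 CPM, and vehicle library 2 was barely above the unstressed range. Nr1d2, which encodes the repressor REV-ERB beta, gave 125, 114 and 152 CPM against 255, 317 and 271 CPM, the tightest of these groups. Bhlhe40 lay above at 162, 221 and 343 CPM against 135 to 146 CPM. Arntl lay below, at 80.3, 77.9 and 82.1 CPM against 73, 2.25 and 2.15 CPM, a gap that vehicle library 1 nearly closes. Nr1d1 and Nfil3 overlapped, and their vehicle values spread from 5.01 to 94.7 and from 0.596 to 50.6 CPM. The list's median was -0.102 without vehicle library 3, against 0.0563 over all genes. It was 0.111 without vehicle libraries 1 and 3, against -0.0766, and 0.12 with limma quality weights, against -0.163, so the list's side of the all-gene median differed between these alternatives. The letters of the E-box CACGTG, which Arntl and Clock bind, were found in the RefSeq promoters (GRCm38.p6, both strands alike) of 3 of the 12 kept clock genes with an entry, namely Per1, Tef and Bhlhe41. They were in 12.3% of the 5223 kept genes with an entry and 8.09% of all 27025, and not in the windows of Dbp, Nr1d2 and Arntl. Per2 and Bhlhe40 had no entry, so their promoters were not searched. This search was made after the clock genes had been seen.

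**Figure D3:**
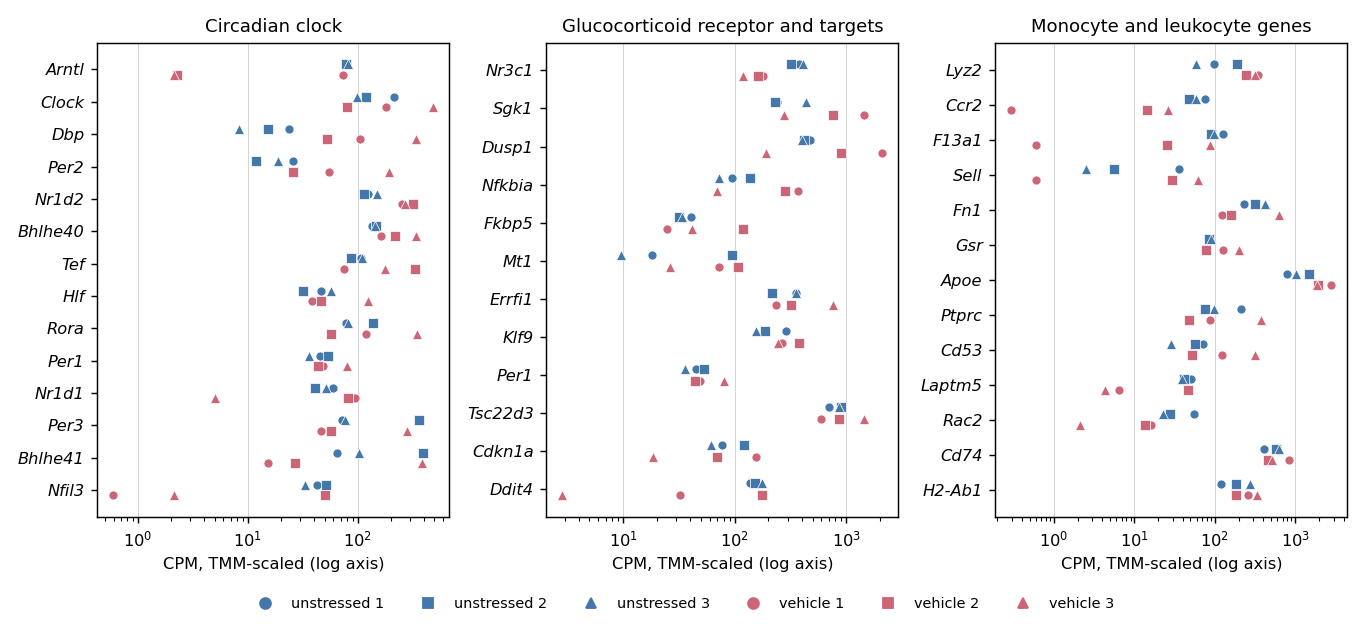
CPM (log axis) per library for the kept clock genes, the kept glucocorticoid targets with Nr3c1, and monocyte and leukocyte genes. Blue marks unstressed and red vehicle libraries, and marker shape the replicate. Nr3c1, Nr1d2 and Dbp separate the groups, whereas Fkbp5 and Ptprc overlap. The exons of Nr1d2 and Dbp differ between the annotations.

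Immediate early genes, the transcription factors and feedback regulators that answer a stimulus within minutes, gave 4 members wholly above and 1 wholly below among 23 kept, with a median of 0.45. Besides Atf3, these were Fos, Zfp36, Klf6 and, below, Jund. Over all kept genes, 7.54% lay wholly above and 7.09% wholly below. Fos was at 568, 744 and 354 CPM against 878, 1784 and 814 CPM (log2 fold change 1.06 ± 0.55 SE). Zfp36, whose protein marks cytokine mRNAs for decay, was at 167, 145 and 103 CPM against 206, 422 and 260 CPM. Jund was at 88.4, 163 and 108 CPM against 28.3, 22.5 and 52.9 CPM (-1.79 ± 0.73). The rest overlapped, among them Egr1 at 542, 660 and 405 against 502, 1512 and 381 CPM and Nr4a1 at 754, 509 and 416 against 722, 715 and 471 CPM. Of 15 kept heat shock and chaperone genes, a list that holds the mitochondrial Hspd1 and Hspe1 beside cytosolic members, 4 lay wholly above and 0 below, with a median of 0.31 near that of all genes. These 4 were Hspd1 and the cytosolic Hspa8, Hsph1 and Dnajb4. Hspd1, the mitochondrial chaperonin, was at 93.6, 110.0 and 106 CPM against 214, 244 and 199.6 CPM, with both groups narrow (1.09 ± 0.51). Hspa8, the constitutive chaperone, was at 479, 619 and 579 CPM against 1082, 949 and 835 CPM. The stress-inducible Hspa1a overlapped, at 97.2, 116 and 137 CPM against 116, 167 and 3.58 CPM. Dnajb9 of the unfolded protein response was at 90.4, 76.8 and 57 CPM against 142, 216 and 201 CPM, while that list's median was 0.08 over 17 kept members.

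Genes of energy metabolism mostly had fold changes above 0 before any correction for exon lengths that differ between the annotations. None passed the test. Of 41 kept nuclear genes for oxidative phosphorylation, 40 had a fold change above 0, 4 lay wholly above and 0 below, and the median was 1.04. With an offset for each gene's exon length in its own annotation, that median was -0.0144, against -0.195 over all genes. Without vehicle library 1 it was 0.246, against 0.131. The 5 members with nearly the same exons all had a fold change above 0, with a median of 1.24. Atp5a1, the alpha subunit of ATP synthase, was at 367, 291 and 381 CPM against 840.0, 649 and 949.9 CPM (log2 fold change 1.23 ± 0.46 SE, edgeR adjusted p = 0.919). Ndufv1, Uqcrh and Uqcrfs1 were the other 3 members without overlap. The share of all kept genes wholly above was 7.54%. Each library's own median over these 41 genes, as log2 against the unstressed mean, was -0.297, 0.861 and -0.507 in unstressed libraries 1, 2 and 3 and 2.02, 0.921 and -0.458 in vehicle libraries 1, 2 and 3. Vehicle libraries 1 and 2 and unstressed library 2 were thus high, and vehicle library 3 was as low as the other unstressed libraries. Summed pineal gland markers were high in the same libraries, at 131.4, 2090 and 45.03 CPM (not TMM-scaled) in unstressed and 1709, 4158 and 10.20 CPM in vehicle libraries, and their part in these values was not tested. The 7 kept genes of the mitochondrial genome went otherwise, with a median of 0.02 and library medians of -1.12, -1.05 and 1.14 in the vehicle group. Of these, mt-Nd1 was at 3432, 1739 and 2574 CPM against 2790.1, 3083 and 4582 CPM.

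Glycolytic genes gave 6 of 16 kept members wholly above, 0 below and a median of 0.85. Ldha and Ldhb encode the subunits of lactate dehydrogenase. Ldha was at 113, 164 and 97.2 CPM against 520.2, 284 and 358 CPM (log2 fold change 1.64 ± 0.53 SE), and Ldhb at 163, 172 and 216 CPM against 1456, 479.7 and 324 CPM (2.04 ± 0.66). Pgk1, Pgam1, Pfkp and Gapdh were the others without overlap. Eno1 just overlapped, at 170.1, 158 and 145 CPM against 562, 445 and 157 CPM, with vehicle library 3 inside the unstressed range. The Gapdh values, 44.7, 57.8 and 46.8 against 100.05, 107 and 57.9 CPM, are uncertain because its many pseudogenes share reads with it. Among 18 kept redox genes 16 were above 0 and the median was 1.06. With the same offset the redox median was 0.0896. The 7 redox members with nearly the same exons had a median of 0.438 without offset, against 0.234 over all such genes. Of these 18, 2 lay wholly above (Gpx1 and Gclm), beside 7.54% of all kept genes. Gpx1, the cytosolic glutathione peroxidase, was at 41.1, 77 and 34.5 CPM against 244, 126 and 81.5 CPM.

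Genes of protein synthesis and turnover also mostly had fold changes above 0 before such a correction, and none passed the test. With the offset for exon length in each annotation, medians turned below 0 for large- and small-subunit ribosomal proteins (-0.158 and -0.217) and translation factors (-0.166). The proteasome (-0.225) and splicing (-0.0516) did so too, against -0.195 over all genes. In that order, 1, 1, 1, 2 and 4 members had nearly the same exons, with medians without offset of 0.831, 0.903, 0.589, 0.792 and 0.269. The median over all 1112 such genes was 0.234. Large-subunit ribosomal proteins had 31 of 32 kept members above 0, 5 wholly above and 0 below (median 0.84), and small-subunit ones 24 of 25, 4 and 0 (median 0.79). The library medians of the large-subunit genes were -0.392, 0.815 and -0.477 in unstressed and 1.53, 0.967 and 0.102 in vehicle libraries, so unstressed library 2 lay above vehicle library 3. Rpl6 was at 18.1, 35.5 and 25.1 CPM against 105, 67.4 and 90.8 CPM, and Rps15a at 7.77, 18.7 and 5.53 CPM against 32.2, 33.7 and 64.4 CPM. Ribosomal protein genes have many processed copies, so their counts are uncertain where reads were shared. Of 24 translation factors, 4 lay wholly above and 2 below. Eif4a1, the helicase that unwinds mRNA leaders, was at 98.5, 150.4 and 81.5 CPM against 325, 359.5 and 279.7 CPM, whereas the scaffold gene Eif4g1 was at 222, 273 and 275 CPM against 147, 163 and 117 CPM. Proteasome and ubiquitin genes gave 6 of 22 above and 0 below (median 0.61), led by Psma2 at 49.6, 68.4 and 29.6 CPM against 439.8, 83.1 and 104 CPM. Splicing genes gave 6 of 24 above and 0 below (median 0.54), among them Srsf3, Srsf6, Srsf7 and Hnrnpk. Srsf6 was at 193, 97.3 and 175 CPM against 402, 195 and 633 CPM. Chromatin genes leaned less, with 1 above and 3 below among 21 and a median of 0.32. In vehicle library 3 alone, the DNA methyltransferase gene Dnmt1 was high (509 CPM, against 0.298 and 10.1 in vehicle libraries 1 and 2). The shares wholly above and below were 7.54% and 7.09% over all kept genes.

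Lysosomal genes, which digest what macrophages take up, gave 6 of 23 kept members wholly above and 1 below, with a median of 0.59. All kept genes gave 7.54% above and 7.09% below. With the offset for exon length in each annotation, the list's median was 0.125, against -0.195 over all genes. The 5 members with nearly the same exons had a median of 0.22 without offset, against 0.234 over all 1112 such genes. Lipa, the acid lipase, was at 64.8, 74.8 and 96.2 CPM against 213, 137 and 441 CPM (log2 fold change 1.75 ± 0.63 SE). Npc2, which moves cholesterol out of lysosomes, was at 165, 232 and 201 CPM against 769, 297 and 383 CPM. Psap, a precursor of lipid-degrading cofactors with nearly the same exons in both annotations, was at 1047, 887 and 1148 CPM against 1504, 1579.7 and 1540.1 CPM. The vehicle values of Psap lay within a narrow range. Ctsh was the member below, at 83.6, 95.8 and 94.9 CPM against 36, 65.2 and 23.6 CPM.

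**Figure D4:**
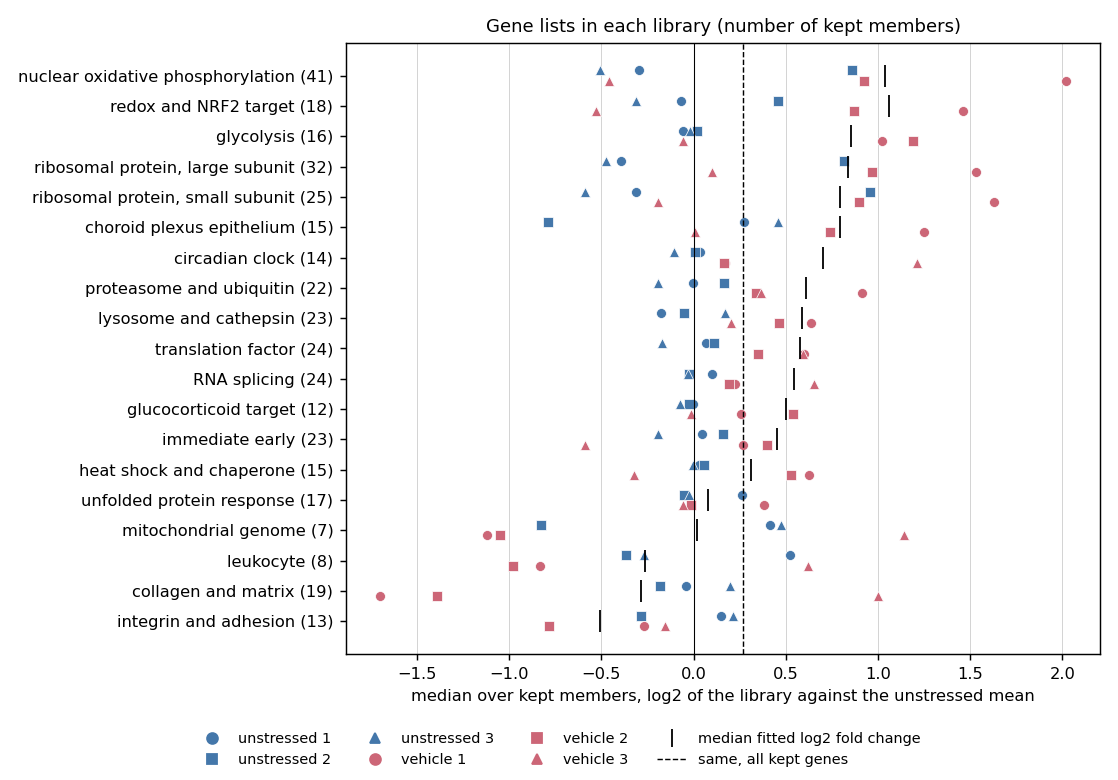
Median over the kept members of each gene list, as log2 of a library's CPM against the unstressed mean (horizontal), for unstressed (blue) and vehicle (red) libraries. The black tick is the median fitted fold change of the list and the dashed line that of all 6590 genes (0.27); for oxidative phosphorylation and ribosomal proteins, unstressed library 2 lies among the vehicle libraries and vehicle library 3 among the unstressed ones.

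Some lists of short genes were among those with the highest medians, and across genes exon length moved with the fold change. Among the 1112 genes with nearly the same exons, the 371 with the shortest exons (468 to 2819 bases) had a median log2 fold change of 0.621, with 36 genes wholly above and 6 below. The 370 of middle length had 0.0703, with 15 above and 31 below, and the 371 longest (4708 to 20773 bases) had -0.0176, with 9 above and 51 below. Across these genes the Spearman correlation of exon length with fold change was -0.283, given as a description since genes share libraries. In single libraries, the median of the longest genes against the unstressed mean was -1.01 and -0.607 in vehicle libraries 1 and 2 and 0.294 in library 3. Unstressed library 2 also fell with length, from 0.229 for the shortest genes to -0.178 for the longest. On the scale common to all 12 libraries, the drug libraries had 0.202 to 0.45 for the shortest and -0.598 to -0.07 for the longest. The median exon length on the Ensembl annotation was 1587 bases for oxidative phosphorylation, 2030.0 and 1972 for large- and small-subunit ribosomal proteins, 8326 for collagens and matrix, and 4914.5 for all kept genes. Not all lists followed length. Mitochondrial genome genes had 1144 bases and a median fold change of 0.0204, leukocyte genes 3445.5 and -0.264, and clock genes 6268.5 and 0.704. The annotations also differed: 1061 genes whose Ensembl exons were over 2 times as long as their RefSeq exons had a median of 0.557, with 122 above and 38 below. With counts offset for each gene's exon length in its own annotation, the median of all genes moved from 0.27 to -0.195, with the list medians given above. That offset acts on lengths that differ between the annotations, so it does not remove the trend among genes with nearly the same exons. Relative to all genes, oxidative phosphorylation stayed above by 0.115 or more, glycolysis by 0.237, redox genes by 0.145 and choroid plexus markers by 0.197 in each of the 20 alternative analyses that kept members of the list. Small-subunit ribosomal proteins and the proteasome lay slightly below all genes in at least 1 alternative, with lowest differences of -0.043 and -0.0412. The part of exon length in the differences between lists was not tested.

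**Figure D5:**
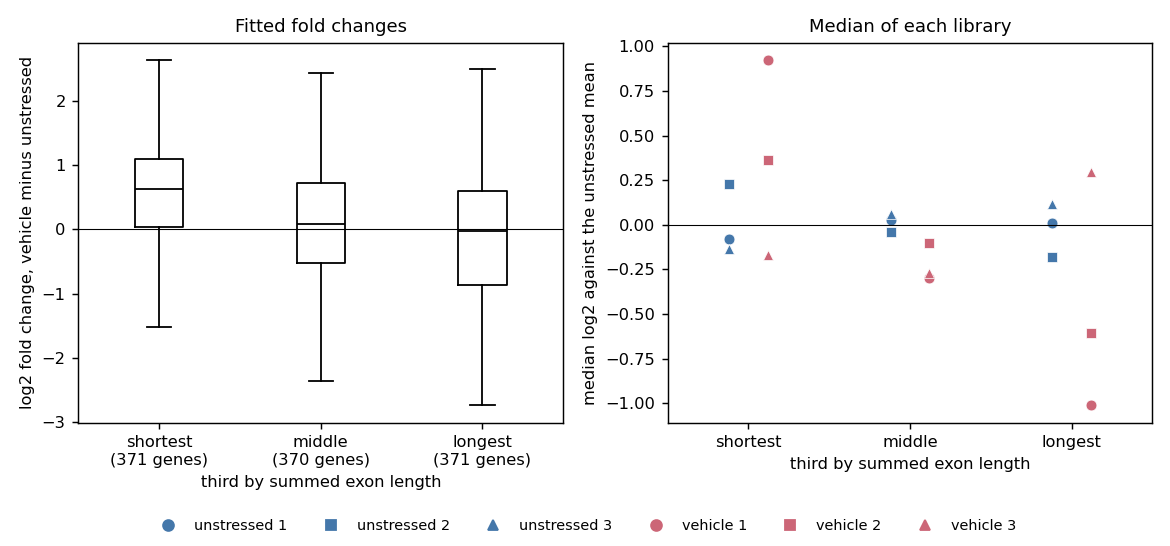
Genes with nearly the same exons in both annotations, divided into 3 groups by summed exon length. Left, fitted log2 fold changes (boxes, quartiles with the median line, and whiskers, values within 1.5 times the box), with medians of 0.621, 0.0703 and -0.0176. Right, each library's median log2 level against the unstressed mean. There vehicle libraries 1 and 2 and, less steeply, unstressed library 2 slope down with length, and vehicle library 3 does not.

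The labelled cell type was checked against its markers, since fewer cells of a type and less RNA per cell cannot be told apart in bulk RNA. Classical monocyte markers summed to 794.1, 892.6 and 790.4 CPM (not TMM-scaled) in unstressed and to 701.4, 796.4 and 1095.0 CPM in vehicle libraries, with 2, 0 and 3 of 12 members at 0 in the vehicle libraries. The largest member was Fn1, which is also on the collagen and matrix list. Fn1 gave 245, 358 and 442 CPM of these sums in unstressed and 119, 179 and 475 CPM in vehicle libraries. The sums are therefore no measure of monocytes alone. Ly6c2 had 14, 30 and 3 counts in unstressed and 0, 20 and 55 counts in vehicle libraries, and was not kept. Ccr2 was at 75.8, 48.6 and 58.7 CPM against 0.298, 14.6 and 26.5 CPM, all below, the lowest value resting on 1 count. F13a1, a coagulation factor of monocytes and macrophages, was also all below, at 128, 89.7 and 99.2 CPM against 0.596, 25.8 and 87.3 CPM. Lyz2, the lysozyme of the myeloid line, lay the other way, at 97.2, 189 and 58.5 CPM against 350.5, 245 and 317 CPM (log2 fold change 1.40 ± 0.60 SE). Apoe, the lipid carrier of macrophages and glia, was at 797, 1496 and 1029.9 CPM against 2827, 1910.0 and 1872 CPM. Members of the same cell type list did not all lie on the same side. The pan-leukocyte gene Ptprc was at 209.9, 75.4 and 97.5 CPM against 87.8, 48.3 and 382 CPM, and the leukocyte list had a median of -0.26 with 0 above and 1 below of 8 kept. All 6 kept genes of MHC class II presentation were above 0 (median 0.57), yet all overlapped, among them H2-Ab1 at 119.9, 183 and 273 CPM against 257, 184 and 338 CPM. Interferon-stimulated genes had a median of 0.18 with 1 above (Ifit3) and 2 below (Trim25 and Irf1) of 16. These counts and those of the leukocyte list stand beside 7.54% above and 7.09% below over all kept genes.

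Transcripts of other tissues were abundant and differed widely between vehicle libraries. Choroid plexus markers summed to 42420, 16790 and 40870 CPM (not TMM-scaled) in unstressed and to 133200, 68290 and 16000 CPM in vehicle libraries. Ttr, the thyroid hormone carrier made by the choroid plexus, was at 5398, 3772 and 4756 CPM against 50270.0, 21616 and 2729.6 CPM, so vehicle library 3 lay under the unstressed range. Folr1 and Prlr were the 2 of 15 kept markers wholly above, Folr1 at 159.7, 54.7 and 130.2 CPM against 763, 235 and 227 CPM. Neutrophil markers summed to 45.53, 96.26 and 39.43 CPM against 152.1, 215.6 and 127.2 CPM. All vehicle sums of the neutrophil list lay above the unstressed ones, although Retnlg, Mmp8 and Cxcr2 of that list were at 0 in every vehicle library. Different genes carried these sums. Ltf gave 78.4 CPM (not TMM-scaled) of the sum in vehicle library 3 and had no count in vehicle library 1. Ngp gave 92.3 CPM in vehicle library 1 but 4.83 CPM in vehicle library 3, under every unstressed library. The 2 kept members, Ngp and G0s2, overlapped between the groups. Collagen and matrix genes had 0 of 19 kept members above and 3 below (Col4a1, Col5a2 and Col6a2) and a median of -0.29. Their library medians were -1.70, -1.39 and 1.0 in vehicle libraries 1, 2 and 3, and without vehicle library 1 the median was 0.118. Integrin and adhesion genes had 0 above and 2 below of 13 (median -0.51), Itga5 at 94.3, 54.2 and 120.4 CPM against 22.3, 24.7 and 2.15 CPM and the integrin linker Tln1 at 237, 191 and 279 CPM against 47, 162 and 83.7 CPM. Beside these list counts, 7.54% of all kept genes lay wholly above and 7.09% wholly below. The part of tissue content in the fold changes of the other gene groups was not tested.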

How the data were processed

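Each library had 1 deposited file of raw, unscaled read counts by gene. Per the file headers, the authors counted the unstressed libraries with featureCounts over exons of an mm10 RefSeq annotation, with no strand or paired-end option recorded; no such command is recorded in the files of the stressed libraries. Per the submitters' processing notes, STAR 2.7.5c, fastp 0.23.2, featureCounts 2.0.1 and the mm10 build were used. A table of the whole series repeated 9 libraries and held 3 more columns that match no sample used here and were left out.

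Ensembl identifiers were matched to RefSeq genes by symbol and locus (26669 genes) or by position (922) through GENCODE vM21. Joined genes held 95.3% to 99.1% of the counts of the 6 libraries. Kept genes were scaled by TMM and tested with edgeR 4.0.16 (quasi-likelihood, R 4.3.3), with Benjamini-Hochberg adjustment at 0.05 and no replicate block; standard errors come from the test statistic. DESeq2 1.42.0 and limma 3.58.1 were alternatives. Named genes were up to 10 per direction with the smallest p among genes without overlap and with nearly the same exons and a gene symbol that is not a clone or predicted name, up to 3 of smallest p per list, and a set of followed genes; examples beyond these were chosen after their values were seen, and 1 gene that the rule selects is not reported here. The genes and the 45 lists (18 of cell types) were chosen with earlier results of these data known. Totals ran from 807725 counts in vehicle library 2 to 4504400 in unstressed library 3.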

Additional observations from a re-analysis of the deposited data

How the results depend on the processing

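The count of genes past the threshold was 0 in both directions in the reported analysis and in most of the 20 alternatives. Exceptions were DESeq2 (6 higher, 2 lower), the filterByExpr filter on 12194 genes (2 lower), a limit of 5 CPM (1 lower) and a fit over all 12 libraries (1 lower). Genes with an unadjusted edgeR p under 0.05 numbered 267 in the reported analysis and, leaving out 1 library at a time, 53, 88 and 49 without unstressed 1, 2 and 3 and 436, 365 and 985 without vehicle 1, 2 and 3, always with 0 calls. Same-numbered libraries had correlations of deviations of -0.00348, 0.137 and 0.163. Vehicle 2 and vehicle 3 correlated best with the unstressed library of their own number, and vehicle 1 with unstressed 2 (0.08). Correlations this small, from 3 libraries per group, cannot settle whether the replicate number pairs the samples. With the replicate block, 0 genes passed and 139 had p under 0.05. Of 2687 fold changes of 147 named genes over the alternatives, 103 had the opposite sign, none past the threshold, and 107 genes kept 1 sign throughout, as did all 20 leading genes, although the sizes of several moved by over 1.5 times without 1 library. The offset for exon bases shared with no other gene and the test of genes that also share no bases were chosen after seeing the data; both gave 0 calls. The median of all genes ranged from -0.201 (replicate block) to 0.353 (DESeq2 size factors), so list medians are read against it. The causes were not tested. The spread between vehicle libraries and the smallest total, 807725 counts, limit what these data can show. So does the low number of genes detected in vehicle libraries 1 and 3 despite their larger totals. Vehicle libraries 1, 2 and 3 had counts in 10345, 13464 and 9522 matched genes, and unstressed libraries in 14322, 17515 and 15792.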

Other observations

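Genes called only by an alternative analysis are given as values. Gid8, a subunit of an E3 ubiquitin ligase complex, was at 269, 415 and 327 CPM in unstressed and 22.3, 19.1 and 21.5 CPM in vehicle libraries, and DESeq2 gave it an adjusted p of 2.35e-07. Its RefSeq exons span 5193 bases and its Ensembl exons 2464, with a Jaccard index of 0.401. Gnas, which encodes the stimulatory G protein subunit, was at 1237, 1352 and 1461 CPM against 73.3, 66.3 and 5.72 CPM (DESeq2 adjusted p = 0.000105), and its exons also differ between the annotations (0.706). The drug libraries, on the vehicle annotation, had 22.1 to 34.7 CPM of Gid8 and 12.7 to 44.7 CPM of Gnas (not TMM-scaled), far under the 1310 to 1540 CPM of Gnas and 284 to 463 CPM of Gid8 in unstressed libraries on that scale. The 6 genes DESeq2 called higher were Ccnt1, Mob1b, Rab10os, St13, Thyn1 and Zbtb38, with Jaccard indices from 0.157 (St13) to 0.42 (Thyn1). The genes called lower under other filters were Nufip2 (Jaccard index 0.441) and Sept2, which had 0 counts in all vehicle and drug libraries and no Ensembl exon bases of its own. For these genes, group and annotation cannot be told apart.

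Some genes were high in vehicle library 3 alone. Itgav, an integrin subunit, was at 303, 125 and 243 CPM in unstressed and 53.9, 95.5 and 2335 CPM in vehicle libraries, and Setd2, a histone methyltransferase, at 178, 113 and 155 CPM against 5.66, 32.6 and 712 CPM.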
